A study of Mus musculus with 12 samples.

Results

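Mouse iPSCs (induced pluripotent stem cells), made by reprogramming and able to give rise to every germ layer, were allowed to differentiate for 4 days. The comparison described here set 3 arrays of sorted cardiac progenitor cells (CPCs) against 3 arrays of spontaneously differentiated cells, both from day 4. These are 6 of the 12 arrays of the series. The sorted group is labelled as a population enriched by flow cytometry for surface FLK1 and PDGFRα. The other groups are 3 arrays of an optimized cardiac differentiation at day 4 and 3 arrays of undifferentiated iPSCs at day 0. The arrays were chosen by their titles, and each gene was represented by the probe set with a single gene symbol and the highest mean signal, which gave 19938 genes. Strain, sex, medium and the culture from which the sorted cells came are not given in the labels. Only the sorted group is labelled as having gone through flow cytometry, so sorting and cell identity cannot be told apart between these groups.

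FLK1, the product of Kdr, binds vascular endothelial growth factors, and PDGFRα, the product of Pdgfra, is a receptor for platelet-derived growth factors. Cells that carry both receptors arise in the early mesoderm after the primitive streak and can form heart muscle, smooth muscle and endothelium. Bone morphogenetic proteins (BMPs) are secreted ligands that pattern this mesoderm: they bind paired serine/threonine kinase receptors, which phosphorylate SMAD proteins, and these switch on targets such as the Id and Msx genes. Immediate early genes, such as Fos, Jun and Egr1, encode transcription factors and feedback regulators that are transcribed within minutes of growth factor signalling or stress without new protein synthesis.

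Values are log2 RMA signals, where 1 unit is a doubling of the signal, and differences are sorted minus spontaneous. Array medians ran from 6.16 to 6.26 in the libraries labelled sorted and from 6.12 to 6.18 in spontaneous cells. Precision is limited by the number of arrays, and no background level was measured. Nothing in the labels says that replicates were separate cultures, so the p-values cover only the spread among these arrays, and that spread may be technical. Fewer cells of a type and less RNA per cell cannot be told apart in such bulk samples.

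The RNA of the gate genes served as a check of the sort. Kdr measured 10.23, 6.25 and 6.03 in replicates 1, 2 and 3 of the libraries labelled sorted CPC, against 9.83, 10.71 and 10.27 in spontaneous cells. Replicate 1 lay among the spontaneous arrays, whereas replicates 2 and 3 lay below all of them and near the day 0 range of 5.50 to 5.78. The difference was -2.77 ± 1.17 (SE, limma adjusted p = 0.405). Pdgfra measured 11.13, 8.47 and 8.29 in the libraries labelled sorted and 10.35, 10 and 9.71 in spontaneous cells, with replicate 1 above and replicates 2 and 3 below every spontaneous array (difference -0.72 ± 0.55 SE, limma adjusted p = 0.565). In the day 0 arrays Pdgfra measured 8.75, 9.14 and 8.81, so replicates 2 and 3 lay below these too. The RNA of replicates 2 and 3 thus went against the label for both FLK1 and PDGFRα. Surface protein was not measured. Taken alone, replicate 1 gave differences of -0.04 for Kdr and 1.11 for Pdgfra. The results below are therefore given with all 3 libraries labelled sorted and, for the lists and genes on which they turn, with replicate 1 alone. In that setting the sorted arm holds 1 array, which is assumed to vary like the arrays of the other groups, so its p-values are no replicated evidence about sorted cells.

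The libraries labelled sorted varied more among themselves than the spontaneous arrays did. Pairwise correlations over all genes ran from 0.966 to 0.980 among the libraries labelled sorted and from 0.992 to 0.997 among spontaneous arrays. The SD exceeded 1 log2 unit for 230 genes in the libraries labelled sorted and for 14 genes in spontaneous cells. In cardiac cultures this number was 115.

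The test across all genes called 1 gene, Fos, which was higher in the libraries labelled sorted, and 0 genes that were lower (0.00502% of 19938, limma, adjusted p under 0.05 with a log2 difference of at least 1). The number called was 18 without spontaneous replicate 1 (1 higher, 17 lower), 4 without sorted replicate 3 (3 higher, 1 lower) and 0 without sorted replicate 1 or spontaneous replicate 3. Without sorted replicate 2 the 1 call was Zfp229, which was lower. At an unadjusted p under 0.05, 1181 genes were higher (5.92%) and 1129 lower (5.66%). All 3 libraries labelled sorted lay above all 3 spontaneous arrays for 1883 genes (9.44%) and below them for 2029 genes (10.2%). Among these separated genes the differences were larger on the lower side. A difference of at least 1 was reached by 9 genes above and 68 below, and one of at least 2 by 0 above and 13 below. With replicate 1 alone, 8525 genes lay above all spontaneous arrays (42.8%) and 6175 below (31.0%), and these are the shares against which counts for that library are read.

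The direction of separation followed the signal level. In the dimmest quintile of genes, 16.3% lay above and 1.88% below all spontaneous arrays, with a median difference of 0.09. In the brightest quintile 1.5% lay above and 17.7% below, with a median of -0.12, while the median of all genes was 0.03. Small differences of the same sign over many bright or many dim genes are therefore common to the comparison, as the plot of separated genes by signal level shows. The cause was not tested.

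**Figure D1:**
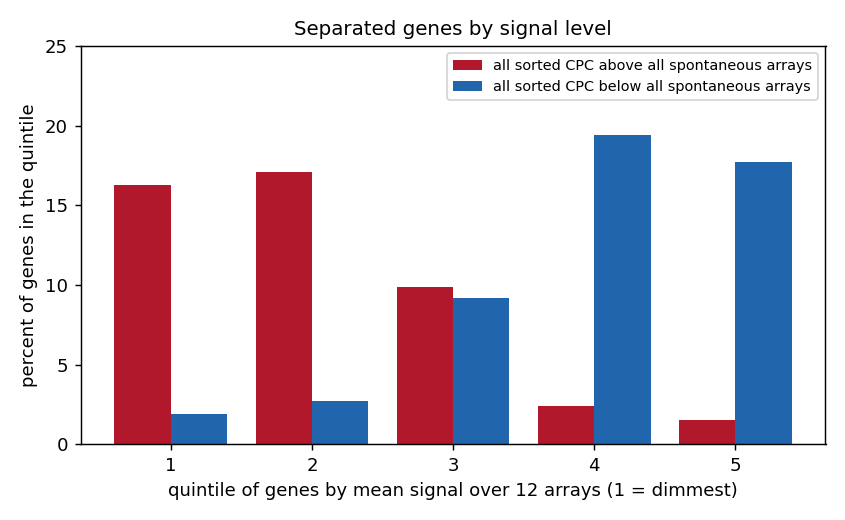
Percent of genes in each quintile of mean signal (x axis, dimmest first) for which all 3 libraries labelled sorted CPC lay above (red) or below (blue) all 3 spontaneous arrays. Genes above dominate the dim quintiles (16.3% in the first) and genes below the bright quintiles (17.7% in the last).

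Immediate early genes had the highest median difference of the lists of 10 or more measured genes. Of 24 measured genes of a list of immediate early and dissociation stress genes, 1 rose by the test (Fos), 10 lay above all spontaneous arrays (41.7%, against 9.44% of all genes) and 0 below. The median difference was 0.52, against 0.03 over all genes. The mean signal over the list was 7.79, 8.22 and 8.74 in the libraries labelled sorted and 7.44, 7.64 and 7.70 in spontaneous cells. In the day 0 arrays, which are not labelled as sorted, it was 8.54, 8.54 and 8.43. The list median was 0.10 with replicate 1 alone, of which 13 members lay above and 6 below all spontaneous arrays, so the median rested on replicates 2 and 3.

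Promoters of Fos and Jun are shown because Fos is the called gene and Jun encodes its dimer partner in the AP-1 transcription factor. They are the 300 bases around the start site in RefSeq (GRCm38.p6), Fos at chr12:85473640-85473939 on the plus strand and Jun at chr4:95052173-95052472 on the minus strand, written 5′ to 3′ along the gene. Capitals mark the motif matches.
Fos: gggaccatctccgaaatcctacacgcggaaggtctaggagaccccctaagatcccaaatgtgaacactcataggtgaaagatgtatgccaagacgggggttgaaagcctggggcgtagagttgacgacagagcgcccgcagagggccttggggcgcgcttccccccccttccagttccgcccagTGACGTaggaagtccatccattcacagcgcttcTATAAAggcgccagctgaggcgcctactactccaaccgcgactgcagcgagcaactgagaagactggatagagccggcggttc
Jun: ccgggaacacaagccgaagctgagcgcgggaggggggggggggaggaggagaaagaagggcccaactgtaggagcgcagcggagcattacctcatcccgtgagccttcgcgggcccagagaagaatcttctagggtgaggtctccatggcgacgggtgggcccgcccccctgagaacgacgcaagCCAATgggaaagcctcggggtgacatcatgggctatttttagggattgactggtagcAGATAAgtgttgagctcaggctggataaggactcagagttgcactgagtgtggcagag
In the Fos promoter the capitals are a cyclic AMP response element half-site (TGACGT, positions -66 to -61 from the start site) and a TATA box (TATAAA, -33 to -28). In the Jun promoter they are a CCAAT box (CCAAT, -65 to -61) and a GATA site (AGATAA, -8 to -3). On either strand, these motifs were found in 7.51%, 13.6%, 37.4% and 11.2% of 32851 promoters, in the order given. The half-site is part of the full element TGACGTCA, which was in 1.79% of promoters and in neither of these. An octamer (ATGCAAAT, 1.74%), a T-box half-site (TCACACC, 3.98%) and a CArG box (1.63%) had no match in these windows. The Fosb promoter, scanned for the same motifs and not shown, had no match to any of them. These matches describe the sequence and show no binding.

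Fos, whose product forms AP-1 with JUN proteins, measured 8.30, 8.84 and 8.41 in the libraries labelled sorted, against 6.37, 7.03 and 6.80 in spontaneous cells. The groups did not overlap, and the 3 libraries labelled sorted spanned 0.53 among themselves. The difference was 1.78 ± 0.21 (SE, 3.44-fold, limma adjusted p = 0.028). With replicate 1 alone it was 1.57 (limma adjusted p = 0.0828, with the spread taken from the other groups). The cardiac arrays, at 6.88, 6.93 and 7.05, lay with the spontaneous ones, and the day 0 arrays were higher, at 9.34, 9.28 and 8.67. Sorted minus cardiac was 1.56 for Fos (limma adjusted p = 0.117). The call did not hold in a fit of only the 6 arrays compared (limma adjusted p = 0.136), with array weights (0.0618), after median centring of the arrays (0.0793), against a minimum fold change (treat, adjusted p = 1), or without sorted replicate 1, sorted replicate 2 or spontaneous replicate 3 (0.0572, 0.0871 and 0.203), while its difference stayed between 1.57 and 1.93 in every fit run.

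Fosb, Jun, Egr1 and Egr2, of the AP-1 and EGR families, also lay above all spontaneous arrays but did not pass the test. Fosb measured 7.90, 8.59 and 7.10 in the libraries labelled sorted and 6.45, 6.48 and 6.46 in spontaneous cells (difference 1.40 ± 0.28 SE, limma adjusted p = 0.207). Jun measured 9.01, 9.43 and 9.25, against 7.69, 8.15 and 8.29 in spontaneous cells (1.19 ± 0.19 SE, limma adjusted p = 0.103). In both genes every library labelled sorted, replicate 1 included, lay above every spontaneous array by more than the spontaneous range. Egr1, a zinc finger factor induced by growth factors, measured 8.09, 8.38 and 8.47 in the libraries labelled sorted and 6.73, 6.99 and 7.0 in spontaneous cells (1.40 ± 0.21 SE, limma adjusted p = 0.093). Its relative Egr2 measured 6.41, 6.24 and 6.46, against 5.74, 5.85 and 6.03 in spontaneous cells (0.50 ± 0.12 SE, limma adjusted p = 0.295). For these 5 genes, Fos among them, replicate 1 alone gave differences of 0.54 to 1.57. In the day 0 arrays Fosb measured 9.11, 9.55 and 8.88, Jun 8.79, 9.13 and 8.55, and Egr1 8.83, 8.14 and 8.30.

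Other separated members of the same list rose more in replicate 2 or 3 than in replicate 1. Of these, Dusp1, Zfp36 and Btg2 were highest in replicate 3 and Socs3 in replicate 2. Dusp1, a phosphatase that turns off MAP kinases, measured 9.41, 9.65 and 10.95 in the libraries labelled sorted and 8.49, 8.75 and 8.96 in spontaneous cells (1.27 ± 0.32 SE, limma adjusted p = 0.295). Zfp36, which destabilises AU-rich messenger RNAs, measured 7.50, 8.15 and 9.12, against 6.97, 6.97 and 7.39 in spontaneous cells (1.15 ± 0.30 SE, limma adjusted p = 0.295). The differences with replicate 1 alone were 0.67 for Dusp1 and 0.39 for Zfp36. Jund, Btg2, a growth-restraining gene, and Socs3, an inhibitor of cytokine signalling, had differences of 0.71, 0.55 and 0.45 with arrays that did not overlap, or 0.14, 0.26 and 0.12 with replicate 1 alone. The other 14 members overlapped. Ccn1, a matrix protein gene, measured 8.93, 10.66 and 11.89 in the libraries labelled sorted and 8.92, 9.33 and 9.31 in spontaneous cells, and Atf3, a stress-induced factor, measured 7.17, 7.91 and 9.21 against 7.13, 7.27 and 7.43. In both, replicate 1 lay among the spontaneous arrays, with differences of -0.26 and -0.10 when taken alone. Myc measured 8.99, 8.42 and 8.91 in the libraries labelled sorted and 8.70, 9.64 and 9.44 in spontaneous cells.

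**Figure D2:**
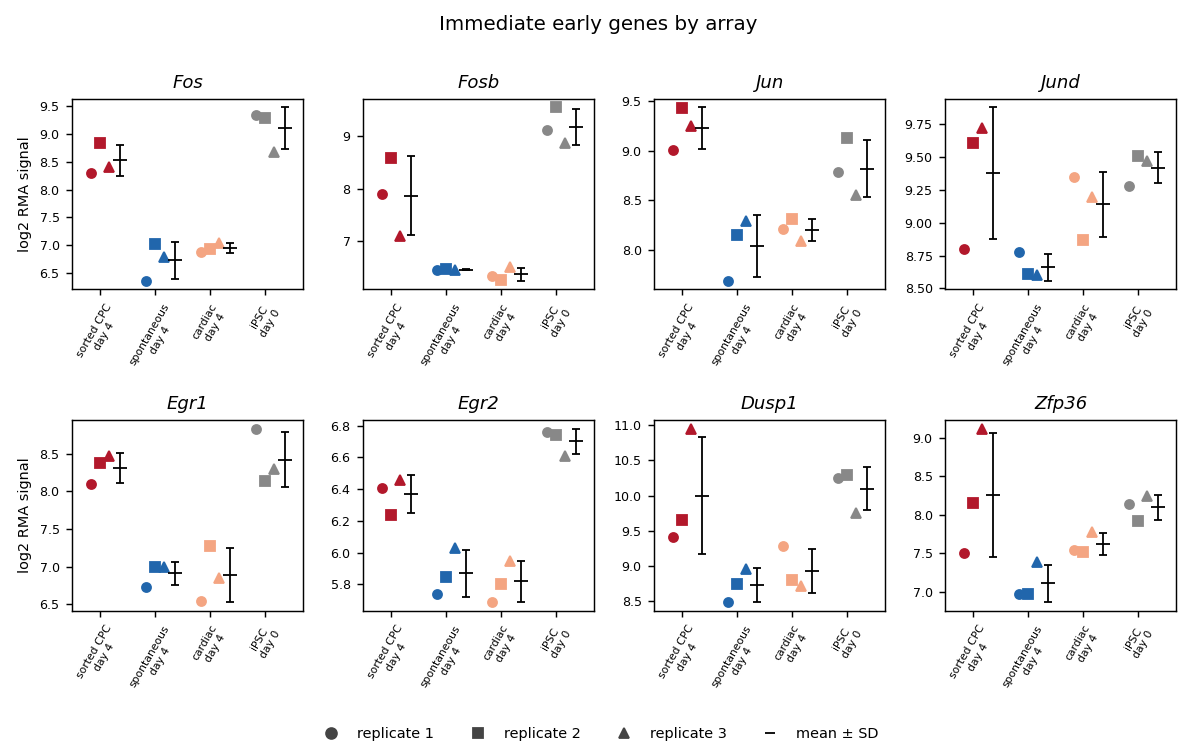
Log2 RMA signal (y axis) of 8 immediate early genes in every array, by group; symbols give the replicate and bars the mean ± SD of 3 arrays. The genes shown were chosen from those without overlap, so all 3 sorted arrays lie above all 3 spontaneous arrays in each panel. Of 24 list members, 14 overlapped. The margin is widest in Fos (lowest sorted value 8.30, highest spontaneous value 7.03).

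In the BMP pathway 0 genes passed the test, and those that separated the groups were mostly lower in the libraries labelled sorted. Of 38 measured genes of the BMP and TGF-beta pathway, 13 lay below all spontaneous arrays (34.2%, against 10.2% of all genes and 19.4% of genes in the fourth quintile of signal) and 1, Inhba, a subunit of activins, lay above (0.25), while 24 overlapped. The median difference was -0.29, and -0.19 with replicate 1 alone, of which 21 members lay below and 7 above.

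Among the ligands, Bmp4, which induces mesoderm in the mouse embryo, measured 7.37, 7.29 and 7.02 in the libraries labelled sorted and 8.49, 10.06 and 10.12 in spontaneous cells. The libraries labelled sorted agreed closely, replicate 1 included, and all were at least 1.12 below the lowest spontaneous array. The difference was -2.33 ± 0.50 (SE, 5.03-fold lower, limma adjusted p = 0.258). Bmp5 measured 5.83, 5.45 and 5.55 in the libraries labelled sorted and 7.24, 8.43 and 8.13 in spontaneous cells (-2.32 ± 0.51 SE, limma adjusted p = 0.258), and its sorted values were near the day 0 range of 5.16 to 5.41. Bmp2, a close relative of Bmp4, measured 6.97, 6.60 and 6.07, against 7.60, 7.57 and 7.33 in spontaneous cells (-0.95 ± 0.32 SE, limma adjusted p = 0.345).

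Receptors had small differences. Bmpr1a, a type I BMP receptor, measured 9.68, 9.55 and 9.26 in the libraries labelled sorted and 9.69, 9.82 and 9.67 in spontaneous cells (-0.23 ± 0.14 SE, limma adjusted p = 0.496). For the type II receptor Bmpr2 the difference was -0.26, and for Acvr1, another type I receptor, -0.29. With replicate 1 alone the 3 differences were -0.05, -0.08 and -0.13.

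Among targets and inhibitors, Id3, which blocks basic helix-loop-helix factors and is induced directly by BMP signalling, measured 7.06, 7.54 and 6.60 in the libraries labelled sorted and 8.67, 9.54 and 9.30 in spontaneous cells (-2.11 ± 0.43 SE, 4.31-fold lower, limma adjusted p = 0.207). Smad6, an inhibitory SMAD that BMP signalling induces, measured 7.51, 6.65 and 7.04, against 7.98, 9.36 and 9.08 in spontaneous cells (-1.74 ± 0.45 SE, limma adjusted p = 0.295). Msx2, a homeobox target, measured 7.81, 6.39 and 6.91, against 8.26, 9.96 and 9.59 in spontaneous cells (-2.24 ± 0.62 SE, limma adjusted p = 0.304). In these 3 genes the arrays did not overlap, and spontaneous replicate 1 was the lowest of its group. Msx1, Bambi, a decoy receptor, and Id1 had differences of -1.67, -1.17 and -0.88, also without overlap. Taken alone, replicate 1 gave differences of -2.19 for Bmp4, -2.10 for Bmp5, -0.53 for Bmp2, -2.12 for Id3, -1.3 for Smad6, -1.46 for Msx2, -0.60 for Msx1 and -0.68 for Bambi.

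**Figure D3:**
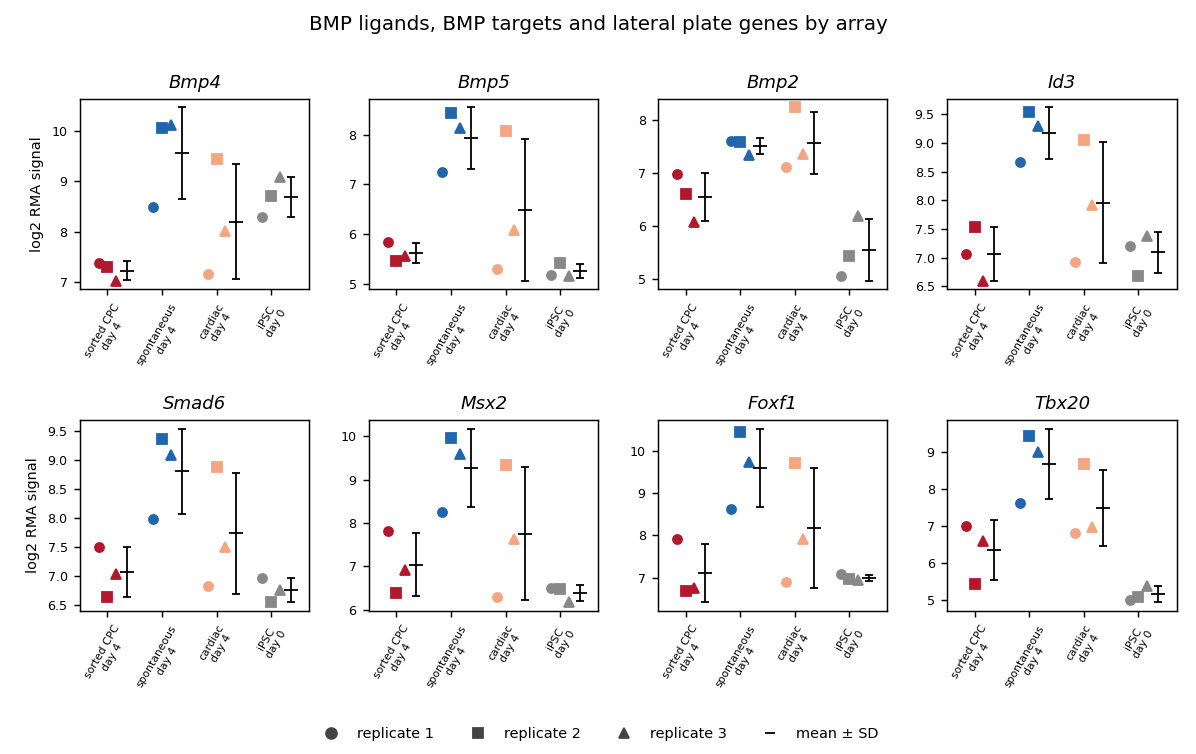
Log2 RMA signal (y axis) of BMP ligands, BMP targets and lateral plate genes in every array, by group; symbols give the replicate and bars the mean ± SD of 3 arrays. The genes shown were chosen from those without overlap, so all sorted arrays lie below all spontaneous arrays in each panel. Of 38 BMP and TGF-beta genes, 24 overlapped. In cardiac cultures replicate 2 lies among or above the spontaneous arrays (Bmp4 at 9.44).

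Genes of lateral plate and cardiogenic mesoderm had the lowest median of all lists of 10 or more measured genes. Of 24 such genes, 12 lay below all spontaneous arrays (50%, against 10.2% of all genes and 19.4% of the fourth quintile of signal). Above them lay 0, and 0 passed the test. The median difference was -0.84, and -0.46 with replicate 1 alone, of which 13 members lay below and 6 above. Bmp4, Bmp5, Msx1 and Msx2, described above, are also among the 12.

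Foxf1, a forkhead factor of lateral plate and visceral mesoderm, measured 7.92, 6.68 and 6.77 in the libraries labelled sorted and 8.62, 10.44 and 9.74 in spontaneous cells (-2.48 ± 0.60 SE, 5.57-fold lower, limma adjusted p = 0.295). Tbx20, a T-box factor of the developing heart, measured 7.0, 5.45 and 6.61, against 7.62, 9.43 and 9.01 in spontaneous cells (-2.33 ± 0.53 SE, limma adjusted p = 0.288). Hand1, a helix-loop-helix factor of the early heart and extraembryonic mesoderm, measured 7.24, 6.75 and 7.25, against 7.44, 8.53 and 8.15 in spontaneous cells (-0.96 ± 0.24 SE, limma adjusted p = 0.295). Replicate 1 lay under the lowest spontaneous array by 0.70 for Foxf1, 0.62 for Tbx20 and 0.19 for Hand1. The related Hand2 and Foxf2 both differed by -0.57, and Prrx1, a limb and lateral plate homeobox gene, by -0.34, without overlap. Pmp22, a membrane protein gene, measured 9.72, 7.42 and 8.40, against 10.33, 11.84 and 11.68 in spontaneous cells (-2.77 ± 0.81 SE, limma adjusted p = 0.318), or -1.57 with replicate 1 alone.

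The wider list of cardiac progenitor transcription factors was mixed. Of 26 measured genes, 6 lay below all spontaneous arrays (23.1%, against 10.2% of all genes), 2 above (7.69%, against 9.44%) and 18 overlapped, with 0 called and a median of -0.14. Srf, a factor that binds CArG boxes in muscle and immediate early genes, measured 8.43, 8.73 and 8.35 in the libraries labelled sorted and 7.90, 8.09 and 8.08 in spontaneous cells (0.48 ± 0.16 SE, limma adjusted p = 0.346). Mesp1, which marks the first cardiac mesoderm, measured 8.54, 6.06 and 5.99, against 7.73, 7.43 and 7.03 in spontaneous cells. Isl1, a factor of the second heart field, measured 7.10, 5.79 and 5.76, against 6.87, 7.05 and 7.12. Gata4 measured 9.74, 8.66 and 8.65, against 9.87, 9.79 and 9.63. In these 3 genes replicate 1 lay within or above the spontaneous range and replicates 2 and 3 below it, as for Kdr. Nkx2-5 measured 7.63, 7.27 and 7.84 in the libraries labelled sorted and 7.49, 7.48 and 7.55 in spontaneous cells, a difference of 0.07 ± 0.16 (SE).

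Sarcomere and excitation genes of heart muscle had small differences at this stage. Of 27 measured, 25 overlapped, 2 lay above (7.41%, against 9.44% of all genes) and 0 below (against 10.2%), and the median was 0.02. The largest differences were falls in genes whose arrays overlapped, Myl7 (-0.75) and Tnnc1 (-0.65). The 2 above were Nppb, a natriuretic peptide gene (0.30), and Myl2, a ventricular myosin light chain gene (0.20).

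Receptors and ligands of vascular growth and guidance included the lowest single gene. Of 29 measured, 5 lay below all spontaneous arrays (17.2%, against 10.2% of all genes) and 2 above (6.9%, against 9.44%), with 0 called and a median of -0.22, or -0.04 with replicate 1 alone. Nrp1, a coreceptor for semaphorins and vascular endothelial growth factor, measured 8.24, 6.13 and 5.46 in the libraries labelled sorted and 8.67, 9.94 and 9.76 in spontaneous cells. The arrays did not overlap, but replicate 1 lay 0.43 under the lowest spontaneous array and replicates 2 and 3 lay 2.54 and 3.21 under it. The difference was -2.85 ± 0.82 (SE, 7.19-fold lower, limma adjusted p = 0.311), or -1.22 with replicate 1 alone. Nrp2, its paralog, differed by -1.43 (-0.73 with replicate 1 alone), Vegfc, a ligand for the lymphatic receptor FLT4, by -1.04 and Sema3a, a secreted semaphorin, by -1.03. Flt4 itself lay above (0.51, or 0.30 with replicate 1 alone).

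In the endothelial and haemogenic list, 6 of 32 measured genes lay below (18.8%, against 10.2% of all genes) and 3 above (9.38%, against 9.44%), with 0 called and a median of 0.06. Runx1, which is required for blood formation, measured 6.51, 6.53 and 6.63 in the libraries labelled sorted and 7.22, 7.79 and 7.88 in spontaneous cells (-1.07 ± 0.25 SE, limma adjusted p = 0.295). The libraries labelled sorted spanned 0.12. Lmo2, an adaptor of blood and endothelial factors, differed by -0.91 and Etv2, an ETS factor that specifies endothelial and blood progenitors, by -0.84 (limma adjusted p = 0.443 for both). Replicate 1 alone gave -0.83 and -0.49. The endoderm and endothelial factors Sox17 and Sox7 differed by -0.75 and -0.60. The 3 members above were Flt4, the globin gene Hbb-y (0.35) and the endothelial sialomucin gene Emcn (0.15).

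Imprinted genes, which are transcribed from 1 parental allele, had a median of -0.53 over 17 measured genes, or -0.17 with replicate 1 alone. Arrays were below for 5 (29.4%, against 10.2% of all genes and 19.4% of genes in the fourth quintile of signal). They were above for 3 (17.6%, against 9.44% and 2.41%), and 0 members were called. Mest, a hydrolase-like gene of mesoderm, measured 6.91, 8.09 and 6.75 in the libraries labelled sorted and 8.36, 9.80 and 10.05 in spontaneous cells (-2.15 ± 0.47 SE, 4.45-fold lower, limma adjusted p = 0.258). Phlda2, which restrains placental growth, measured 10.39, 7.93 and 8.48, against 10.73, 11.93 and 11.53 in spontaneous cells (-2.47 ± 0.65 SE, limma adjusted p = 0.295). The growth factor gene Igf2 measured 8.02, 7.66 and 8.73, against 8.72, 10.41 and 9.86 in spontaneous cells (-1.52 ± 0.38 SE, limma adjusted p = 0.295), with sorted replicate 3 just above spontaneous replicate 1. Peg10, a retrotransposon-derived gene, differed by -1.44. The differences with replicate 1 alone were -2.49 for Mest, -1.01 for Phlda2 and -0.85 for Peg10. Opposite to these, Meg3, a maternally expressed long RNA, lay above all spontaneous arrays (0.38). Without spontaneous replicate 1, Mest and Igf2 were called lower (-2.67 and -2.0, limma adjusted p = 0.0466 for both).

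Streak, pluripotency and epithelial genes divided the libraries labelled sorted from each other. The median of 25 measured genes of primitive streak and nascent mesoderm was -0.20, and 0.41 with replicate 1 alone, which lay above all spontaneous arrays for 20 of them and below for 3 (42.8% and 31.0% of all genes). The mean signal over the list was 8.94, 7.92 and 7.42 in the libraries labelled sorted and 8.37, 8.29 and 8.25 in spontaneous cells. Mixl1, a homeobox gene of the streak, measured 12.11, 10.35 and 7.52 in the libraries labelled sorted and 10.84, 11.13 and 11.33 in spontaneous cells. Frzb, a secreted WNT antagonist, measured 10.60, 8.32 and 5.56, against 8.70, 7.72 and 7.44 in spontaneous cells. Cdh2, the N-cadherin gene, measured 11.10, 9.06 and 6.24, against 10.23, 10.58 and 10.39. All 3 genes were highest in replicate 1 and lowest in replicate 3, with ranges of 4.58, 5.03 and 4.86 log2 units, and their differences of -1.11, 0.21 and -1.60 had SEs of 1.16, 0.95 and 0.89.

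Pluripotency genes ran the other way. Over 31 measured genes the median was 0.01, and -0.62 with replicate 1 alone, which lay below all spontaneous arrays for 18 and above for 4. Of the 31, 30 overlapped. Sox2 measured 7.26, 10.73 and 9.36 in the libraries labelled sorted and 9.49, 9.04 and 9.69 in spontaneous cells. Utf1, a chromatin gene of undifferentiated cells, measured 7.05, 11.15 and 10.89, against 10.14, 9.21 and 9.81 in spontaneous cells. Nr0b1, a nuclear receptor gene of naive cells, measured 5.34, 9.20 and 6.0, against 7.47, 7.67 and 8.93. In these genes replicate 1 was the lowest of the 6 arrays, and replicate 2 the highest. Pou5f1, which encodes OCT4, measured 10.47, 11.37 and 10.80, against 10.64, 9.80 and 10.28 in spontaneous cells (0.64 ± 0.23 SE, limma adjusted p = 0.357). Tbx3 was the 1 member without overlap, at 8.93, 7.33 and 7.51 in the libraries labelled sorted and 9.14, 10.09 and 9.97 in spontaneous cells (-1.82 ± 0.47 SE, limma adjusted p = 0.295), or -0.81 with replicate 1 alone.

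The 29 measured genes of surface ectoderm and epithelium had a median of 0.12, and -0.60 with replicate 1 alone, which lay below for 19 of them. Cdh1, the E-cadherin gene, measured 9.14, 11.27 and 11.56 in the libraries labelled sorted and 10.77, 9.74 and 9.84 in spontaneous cells. Sfn, an epithelial 14-3-3 gene, measured 6.88, 8.18 and 11.64, against 7.60, 7.60 and 8.08 in spontaneous cells. In both genes replicate 1 was the lowest of the 6 arrays and replicates 2 and 3 the highest. The list's largest differences were falls in the keratin genes Krt8 (-1.02) and Krt18 (-0.82), followed by Esrp1 (0.71) and Cldn4 (0.66). Krt8 measured 9.71, 9.96 and 11.21, against 10.75, 11.64 and 11.54 in spontaneous cells. Krt18 measured 7.96, 9.67 and 10.87, against 9.78, 10.62 and 10.54. In both keratin genes replicate 2 lay below all spontaneous arrays, as replicate 1 did.

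**Figure D4:**
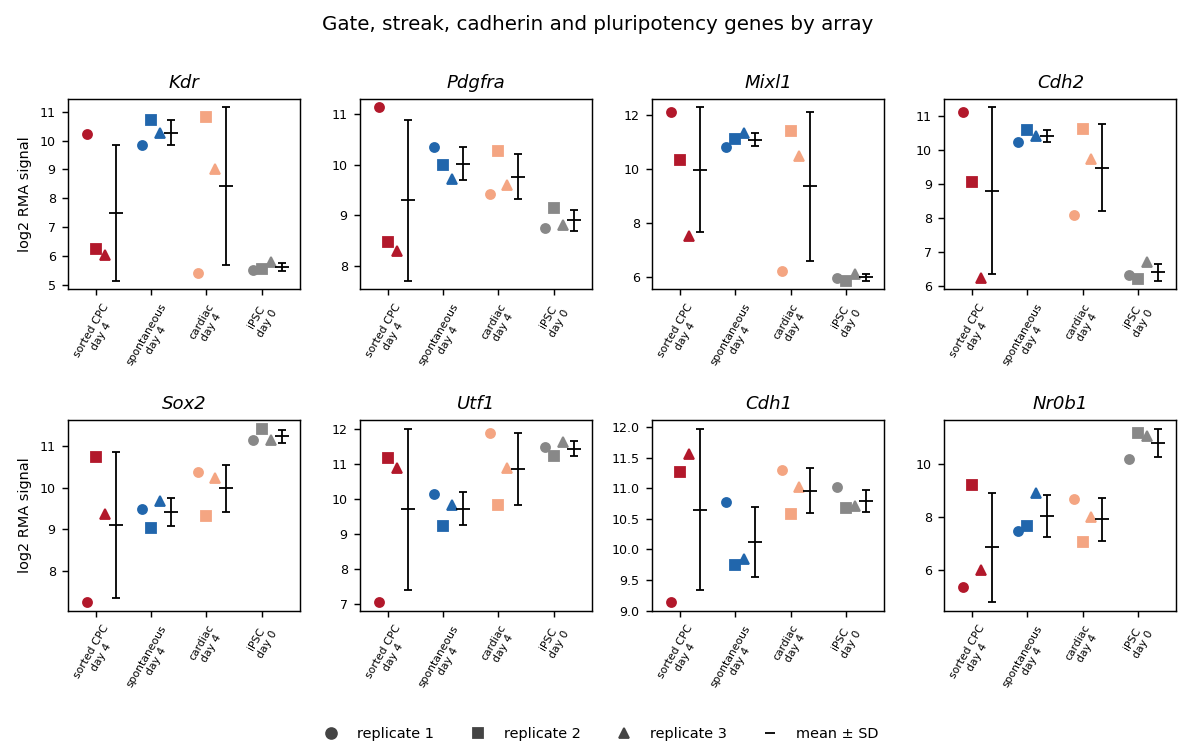
Log2 RMA signal (y axis) of gate, streak, cadherin and pluripotency genes in every array, by group; symbols give the replicate and bars the mean ± SD of 3 arrays. The libraries labelled sorted CPC replicates 1 and 3 lie at opposite ends for Mixl1 (12.11 and 7.52) and Cdh2 (11.10 and 6.24).

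Genes of the formative and primed epiblast, the state between naive pluripotency and gastrulation, had a median of 0.27 over 19 measured, and 0.09 with replicate 1 alone. Fgf5, a growth factor of the postimplantation epiblast, measured 9.30, 10.11 and 10.01 in the libraries labelled sorted and 9.67, 8.32 and 8.27 in spontaneous cells (1.05 ± 0.36 SE, limma adjusted p = 0.345), or 0.54 with replicate 1 alone. Otx2, a homeobox factor of epiblast and forebrain, measured 10.16, 10.53 and 9.33, against 9.80, 8.60 and 8.55 in spontaneous cells (1.03 ± 0.36 SE, limma adjusted p = 0.346). In both genes spontaneous replicate 1 lay among the libraries labelled sorted and the other spontaneous arrays below.

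Lpar4, the lysophosphatidic acid receptor gene in the series title, did not separate the groups. It measured 8.61, 9.12 and 7.83 in the libraries labelled sorted and 8.79, 8.69 and 8.77 in spontaneous cells (-0.23 ± 0.42 SE, limma adjusted p = 0.803). Of 10 measured receptors for lysophosphatidic acid and sphingosine 1-phosphate, 2 lay below (20%, against 10.2% of all genes) and 0 above (against 9.44%). S1pr1, a sphingosine 1-phosphate receptor gene, measured 5.93, 5.64 and 6.13, against 6.25, 6.90 and 6.54 in spontaneous cells (-0.66 ± 0.20 SE, limma adjusted p = 0.321). Lpar1 measured 7.71, 8.14 and 7.89, against 8.40, 8.27 and 8.31 in spontaneous cells (-0.41 ± 0.14 SE, limma adjusted p = 0.345).

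Other signalling lists had 0 called members and medians between -0.06 and 0.13. In the WNT list 4 of 41 measured genes lay below (9.76%, against 10.2% of all genes) and 3 above (7.32%, against 9.44%), shares near those of all genes. Lgr5, an R-spondin receptor, measured 5.16, 5.25 and 5.29 in the libraries labelled sorted and 5.80, 7.20 and 6.91 in spontaneous cells (-1.40 ± 0.38 SE, limma adjusted p = 0.297). Nkd1 and Dkk1, which are WNT inhibitors, differed by -1.24 and -0.94, or -0.73 and -0.63 with replicate 1 alone. Those above were the WNT antagonist genes Sfrp5 (0.41) and Wif1 (0.35) and the ligand gene Wnt4 (0.21). Wnt5a measured 9.05, 5.73 and 5.30, against 8.29, 9.35 and 9.15 in spontaneous cells, with replicate 1 within the spontaneous range. In the Nodal list 3 of 12 lay below (25%, against 10.2% of all genes and 19.4% of the fourth quintile) and 0 above, with a median of 0.12. Cfc1, a coreceptor gene, differed by -1.31 and Foxh1, a SMAD partner, by -0.86, or -0.95 and -0.36 with replicate 1 alone. In the LIF list 4 of 13 lay below (30.8%, against 10.2% of all genes and 19.4% of the fourth quintile). One side up, 1 member lay above (7.69%, against 9.44%), and the median was 0.04. Lifr and Il6st, which encode the LIF receptor subunits, differed by -0.98 and -0.65 and Stat3, their transducer, by -0.42, while Socs3 was the member above (0.45). For Lifr replicate 1 alone gave -0.58. In the FGF list 2 of 24 lay above (8.33%) and 2 below (8.33%). Dusp6, a feedback phosphatase of ERK, and Etv5, an ETS factor gene, were above (0.53 and 0.27), and Dusp4, another phosphatase of ERK, and Etv4, a relative of Etv5, were below (-0.43 and -0.11). In the NOTCH list 1 of 19 lay above and 1 below (5.26% each), the target genes Hes5 (0.34) and Hey2 (-0.85).

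Lists of other cell types were counted to describe what else the samples could hold, against 10.2% of all genes below and 9.44% above. For blood and immune cells 0 of 14 measured genes lay below and 1 above, for fibroblasts 2 of 23 lay below and 2 above, for germ cells 0 of 18 below and 1 above, and for neuroectoderm 0 of 25 below and 3 above, with 0 called in each. Their mean signals ran from 5.35 to 6.46 in the libraries labelled sorted and from 5.32 to 6.35 in spontaneous cells, which is around or below the array medians. For trophectoderm 3 of 16 lay below (18.8%) and 1, the keratin gene Krt7 (0.58), above (6.25%), with Gata3, a zinc finger factor, at 7.06, 6.02 and 7.19 in the libraries labelled sorted and 7.48, 9.05 and 9.03 in spontaneous cells (-1.76 ± 0.51 SE, limma adjusted p = 0.311). For visceral endoderm 4 of 24 lay below (16.7%) and 0 above, with a median of -0.11. The mean signals of the trophectoderm and visceral endoderm lists lay in the fourth quintile, of which 19.4% lay below. Neither share below exceeded that of genes of like signal. The part of these cell types in the results above was not tested.

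**Figure D5:**
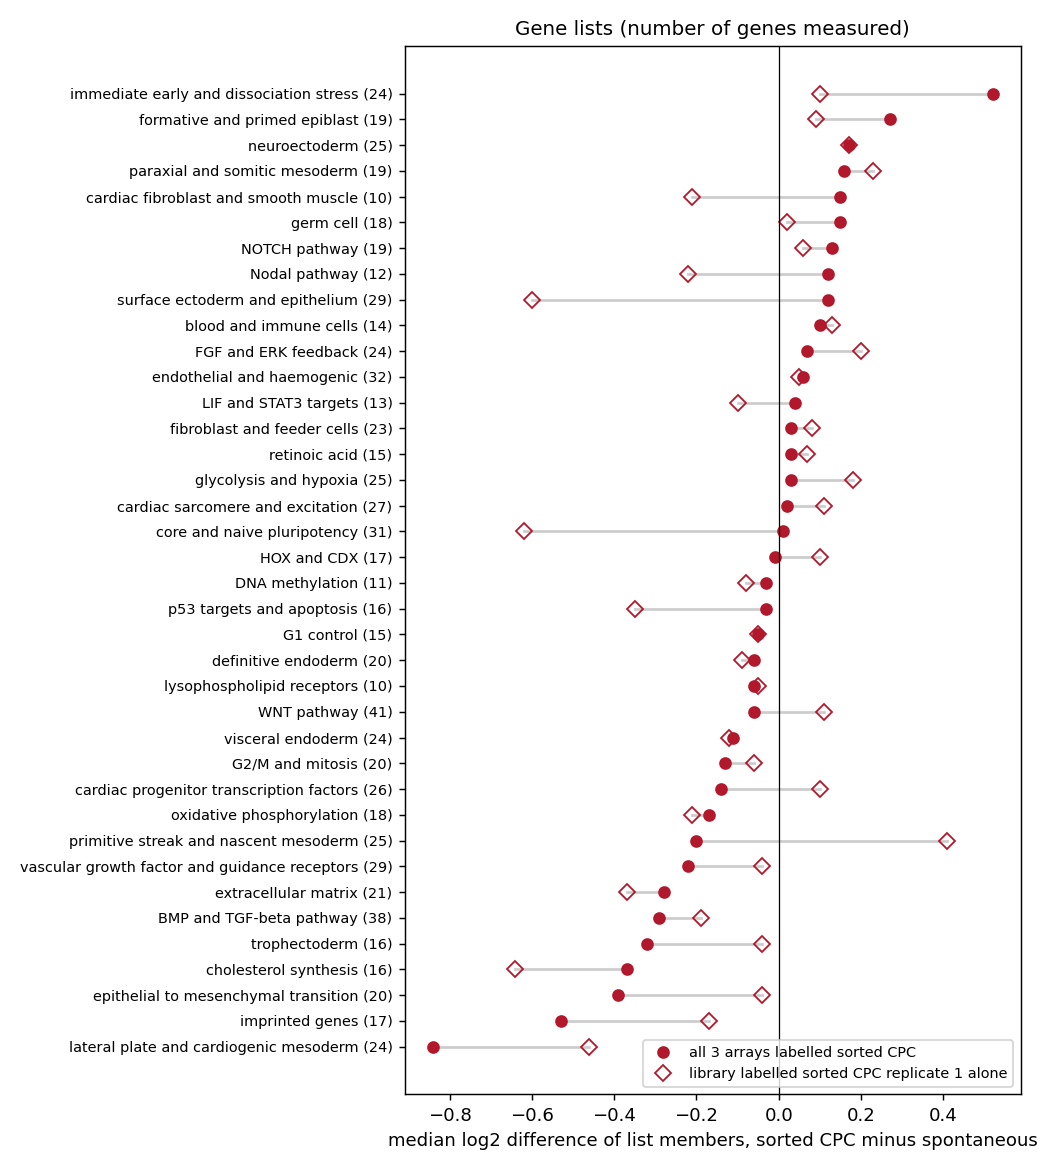
Median log2 difference, sorted CPC minus spontaneous (x axis), of the measured members of each list (y axis, number of genes in brackets), with all 3 libraries labelled sorted (filled) and with replicate 1 alone (open). With all 3 libraries lateral plate genes lie lowest (-0.84) and immediate early genes highest (0.52), with replicate 1 alone they lie at -0.46 and 0.10, and the streak and pluripotency lists move in opposite directions between the settings.

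The comparison with the cardiac cultures set the libraries labelled sorted against the other group of day 4 cells, and does not stand for day 4 cells in general. It called 0 of 19938 genes (0%, limma, smallest adjusted p = 0.117), while 2007 genes were higher (10.1%) and 1128 lower (5.66%) at an unadjusted p under 0.05. With replicate 1 alone, an arm of 1 array whose spread comes from the other groups, 98 genes passed (4 higher, 94 lower). With all 3 libraries labelled sorted and an unadjusted p under 0.05 (limma), 6 of the 24 immediate early genes were higher and 1 lower. Their median was 0.34. Of the 38 BMP and TGF-beta genes, 0 were higher and 3 lower at the same unadjusted level, with a median of -0.15. Of the 24 lateral plate genes, 0 were higher and 1 lower, with a median of -0.24. The 12 of them that lay below the spontaneous arrays were therefore not shown to lie below the cardiac arrays too. The cardiac values were 7.16, 9.44 and 8.01 for Bmp4 and 6.91, 9.72 and 7.92 for Foxf1. The cardiac arrays were 5.42, 10.81 and 9.01 for Kdr and 6.22, 11.42 and 10.48 for Mixl1. In both genes cardiac replicate 1 lay near the day 0 arrays. This spread among the cardiac arrays limits what the comparison could call. Visceral endoderm genes gave the largest share of differences at that unadjusted level, though 0 were called. There, 17 of 24 were lower in the libraries labelled sorted than in cardiac cultures (median -0.85), against 4 of 24 lower than in spontaneous cells. Ttr, a transport protein gene of visceral endoderm, measured 7.74, 9.48 and 6.72 in the libraries labelled sorted, 11.34, 9.56 and 10.04 in cardiac cultures and 8.45, 7.57 and 7.08 in spontaneous cells.

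Over all genes, list members included, the 15 most negative differences among genes without overlap ran from -1.95 to -2.85 and the 15 most positive from 0.74 to 1.78. Spontaneous replicate 1 was the lowest spontaneous array in 14 of the 15 lower genes. Morc4, a gene for a chromatin ATPase on the X chromosome, came nearest to the threshold on the lower side among the named genes. It measured 6.58, 7.07 and 7.07 in the libraries labelled sorted and 8.25, 9.77 and 9.45 in spontaneous cells (-2.25 ± 0.34 SE, 4.76-fold lower, limma adjusted p = 0.093). Without spontaneous replicate 1 it was called lower (-2.71, limma adjusted p = 0.00666). Capn6, a calpain-like gene that is also on the X chromosome, measured 6.05, 5.67 and 6.76, against 7.20, 8.93 and 8.71 in spontaneous cells (-2.12 ± 0.52 SE, limma adjusted p = 0.295). Asb4, Vstm2b and Pcdh18, a protocadherin gene, differed by -2.13, -2.0 and -1.95, but by -0.43, -1.15 and -0.77 with replicate 1 alone.

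Replicate 3 was the highest library labelled sorted in 12 of the 15 most positive genes, some immediate early genes among them. Outside the immediate early list, Dok2, an adaptor of tyrosine kinase signalling, measured 6.59, 6.43 and 8.51 in the libraries labelled sorted and 6.08, 6.06 and 6.12 in spontaneous cells (1.09 ± 0.40 SE, limma adjusted p = 0.357). Amotl2, an angiomotin family gene of the Hippo pathway, measured 8.55, 9.21 and 10.07, against 8.23, 8.43 and 8.35 in spontaneous cells (0.94 ± 0.29 SE, limma adjusted p = 0.324). Edn1, the endothelin 1 gene, measured 5.89, 6.09 and 6.96, against 5.55, 5.58 and 5.59 (0.74 ± 0.27 SE, limma adjusted p = 0.357). Taken alone, replicate 1 gave differences of 0.50 for Dok2, 0.21 for Amotl2 and 0.32 for Edn1. Adgrl2, an adhesion G protein-coupled receptor gene, was even across the group, at 10.76, 10.52 and 10.89 in the libraries labelled sorted and 10.35, 9.75 and 9.82 in spontaneous cells (0.75 ± 0.28 SE, limma adjusted p = 0.364). Thbs1, a matrix glycoprotein gene, had the largest SD among the libraries labelled sorted (2.57), at 6.48, 7.38 and 11.31, against 6.62, 6.59 and 6.75 in spontaneous cells.

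Probe sets outside the gene table gave no further call. Among 13768 probe sets whose annotation lists more than 1 gene or none, 0 were called and 1554 had an unadjusted p under 0.05 (limma, smallest adjusted p = 0.0666).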

How the data were processed

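Total RNA was isolated on silica columns and biotinylated cDNA was hybridised to Affymetrix gene arrays, per the labels' protocols. The deposited values are RMA log2 signals, which the authors obtained with Affymetrix Expression Console 1.3.1 according to the submitters' processing notes. The log base was read from the range of the values (1.8747 to 13.8686). Of 35557 probe sets, 21789 had 1 gene symbol in the platform annotation, and the brightest probe set of each gene was kept, which left 19938 genes. The sources used here do not name the genome build of the probes.

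All 12 arrays entered 1 linear model with a mean per group in limma 3.58.1 (R 4.3.3), with an intensity trend of the prior variance. Two-sided p-values were adjusted over 19938 genes (Benjamini-Hochberg), and a call needed an adjusted p under 0.05 and an absolute log2 difference of at least 1. SDs are between arrays and SEs come from limma's moderated contrast. The model was also run on simulated data in which each gene had the same spread in all groups. The real groups differed in spread, with a median SD of 0.197 in sorted and 0.096 in spontaneous arrays. The simulation therefore does not cover that difference.

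The groups compared and the 40 gene lists, with 814 of 855 entries measured, were chosen with earlier results of these data known, and list counts support no test. Candidates for naming were Kdr, Pdgfra and Lpar4 and the 15 most positive and most negative differences without overlap (without predicted, small RNA or olfactory genes). They also included the 4 largest differences and any calls of each list, and the 10 largest SDs among sorted arrays. Not all of these candidates are described. Other list members are named because their arrays did not overlap, or for their role in the group described, and were chosen after their values were seen. Promoter sequences and gene names are RefSeq's (GRCm38.p6); the cyclic AMP element, CArG and TATA motifs were added after seeing the data. Alternatives were other priors, array weights, fewer arrays, a dim filter, mean probe sets, other scalings, treat, the replicate block and each array left out.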

Additional observations from a re-analysis of the deposited data

How the results depend on the processing

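The single call, Fos, held with a prior variance without trend or robust, removal of dim genes, averaged probe sets, repeated quantile normalization, cyclic loess and no minimum fold change. The number of genes called was 0, and the number of list members called 0, with array weights, with only the 6 arrays compared, after median centring and with treat. Leaving out 1 array gave 0 to 18 genes and 0 to 5 list members, the highest without spontaneous replicate 1 (1 higher and 17 lower). Without sorted CPC replicates 2 and 3, a setting chosen after seeing the data in which the lone sorted array is assumed to vary like the other groups, 5 genes were called, of which 0 were shared with the main result (Krt18, B4galt6, Prkaa2, Trh and Apela, all lower in replicate 1 and named after their values were seen), with 2 of them list members.

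Deviations of same-numbered sorted and spontaneous arrays from their group means correlated over genes at -0.12, -0.30 and 0.08. With same-numbered cardiac arrays the values were -0.38, 0.20 and 0.31 for sorted and 0.22, 0.15 and -0.02 for spontaneous arrays. Deviations from a mean of 3 arrays depend on each other, so these values cannot decide whether the replicate numbers pair the samples. With the replicate block 1 gene was called, again Fos (limma adjusted p = 0.0476), and 0 in sorted against cardiac.

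In the main setting 1883 genes had all sorted arrays above all spontaneous arrays, and 2029 had them below. Those above numbered 287 after the filter on dim genes, 987 after median centring and 1223 after repeated quantile normalization. Those below numbered 1737, 2723 and 1640 in the same order. The filter dropped dim genes and changed no values, so its counts come from fewer genes. With 1 array left out, 2611 to 5845 lay above and 2343 to 3808 below. In replicate 1 alone 8525 (42.8%) lay above and 6175 (31.0%) below. Separation is easier to reach with fewer arrays, so these counts are not comparable with the main ones. Sorted against cardiac gave 0 calls in every fit of all arrays, 0 to 1 with 1 array left out and 98 (4 higher, 94 lower) without sorted CPC replicates 2 and 3.

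Differences that changed sign without sorted CPC replicates 2 and 3 were those of Pdgfra (1.11), Mixl1 (1.01), Mesp1 (1.14), Cdh2 (0.70), Isl1 (0.08), Wnt5a (0.11), Cdh1 (-0.98), Sfn (-0.89), Ccn1 (-0.26), Thbs1 (-0.17) and Atf3 (-0.10). With 1 array left out, the difference ran from -2.16 (without sorted CPC replicate 1) to 0.13 (without replicate 3) for Mixl1, from -1.01 to 1.51 between the same settings for Frzb, and from 2.15 to -0.23 for Sfn. It ran from -1.10 (without sorted CPC replicate 2) to 0.63 (without replicate 1) for Sox2 and from -0.75 to 1.3 for Utf1. Between the settings without sorted CPC replicate 2 and without replicate 3 it ran from -0.53 to 0.11 for Lpar4, from -0.47 to 0.91 for Ttr and from 0.23 to -0.06 for Nkx2-5. Signs also turned without spontaneous replicate 1 for Utf1 (0.19) and without spontaneous replicate 3 for Utf1 (0.02), Frzb (-0.05) and Ttr (-0.03). Array weights turned Mesp1 (0.07), median centring Nkx2-5 (-0.01), and quantile normalization and cyclic loess Utf1 (0.02 and 0.06). The causes were not tested beyond the arrays left out. The median of all genes ran from -0.05 to 0.03 over the scalings. No background was measured, so signals at or below the array median may not exceed it.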

Other observations

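Genes of energy metabolism and mitosis had small differences, and 0 passed the test. Of 18 measured genes of oxidative phosphorylation, 7 lay below all spontaneous arrays (38.9%) and 0 above, with a median of -0.17. The 7 were subunits of complexes I to IV, among them Uqcrc1 (-0.28), Ndufv1 (-0.28) and Cox5b (-0.22). Of 20 G2/M and mitosis genes, 7 lay below (35%) and 1 above, with a median of -0.13, and the mitotic kinase genes Cdk1, Plk1 and Aurka differed by -0.15, -0.16 and -0.21. These lists are bright, with mean signals of 10.19 to 10.41 and 9.30 to 9.50 in the libraries labelled sorted, and 17.7% of the brightest quintile of all genes lay below.

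Cholesterol synthesis genes differed between the libraries labelled sorted. The mean over 16 measured genes was 8.75, 9.01 and 9.47 in replicates 1, 2 and 3 and 9.17, 9.71 and 9.49 in spontaneous cells. Replicate 1 lay below all spontaneous arrays for 15 of the 16 (31.0% of all genes), with a median of -0.64, while the arrays overlapped for all 16 over all 3 libraries labelled sorted (median -0.37).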
